A study of Mus musculus with 6 samples.

Results

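Expression of 10 cell-cell adhesion genes was compared between Tyr-H and Tyr-L B16 cells, which are subclones of a mouse melanoma line. They encode the cadherins *Cdh1*, *Cdh2* and *Cdh3*, the junctional adhesion molecule *F11r*, the intercellular and vascular adhesion molecules *Icam1*, *Icam2* and *Vcam1*, and the melanoma-associated adhesion molecules *Mcam*, *L1cam* and *Alcam*. The genes were taken by symbol from tables that list 20788 genes in at least 1 library. All 10 were listed in at least 1 library, and 7 of them were among the 14336 genes tested (those that averaged 0.1 FPKM or more over the 6 libraries). FPKM counts fragments relative to transcript length and to the mapped fragments of a library, so levels can be compared between genes. RNA had been sequenced in 3 libraries of Tyr-L cells, labelled as having low tyrosinase activity, and 3 of Tyr-H cells, labelled as having high tyrosinase activity. Both came from the C57BL/6 strain and had been grown in the same low-glucose DMEM with serum. No drug, transgene or edited allele is given for either group.

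The methods describe collecting colonies from sparsely seeded dishes. Whether each group is 1 clone, and whether its 3 libraries came from separate cultures, is not given in the sources used here, so the p-values measure only the spread between these libraries. The genome build in the submitters' notes is GRCm38.p6. *Tyr*, which encodes tyrosinase, averaged 10.0 ± 0.602 FPKM in Tyr-L and 21.3 ± 2.14 in Tyr-H libraries (SD, n = 3), in the order of the labels. The study had itself reported *Tyr* from RNA sequencing, so this order is not independent of it. All 8 melanocyte lineage markers were listed in both groups, with summed levels of 7554 to 7877 FPKM in Tyr-L and 5634 to 6186 FPKM in Tyr-H libraries, and *Mitf*, the lineage's master regulator, was at 90.5 ± 6.64 and 25.05 ± 1.565 FPKM. The files hold no read counts, and the steps between the lowest values gave a depth of about 18700000 to 21700000 fragments per library.

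Cadherins bind the same cadherin on a neighbouring cell in the presence of calcium, and their tails are tied to actin by catenins. Epidermal melanocytes attach to keratinocytes through E-cadherin, and melanoma cells often carry N-cadherin in its place. The ICAMs, VCAM-1, MCAM, L1CAM, ALCAM and the F11r product JAM-A belong to the immunoglobulin superfamily. The ICAMs and VCAM-1 are ligands of leukocyte integrins, and their genes respond to inflammatory signals in many cell types.

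*F11r*, *Icam1* and *Icam2* rose in Tyr-H cells, and none of the 7 tested genes fell by the rule used here (limma gave 1, *Cdh2*, an unadjusted p under 0.05 with a lower value). The rule asked for an adjusted p no higher than 0.05 in limma and for a log2 fold change, on log2(FPKM + 0.1), of 1 or more in either direction. The 3 called genes were among 7 tested, and 8.75% of all tested genes were called in either direction. *Icam1* entered the test only through its Tyr-H libraries, so nothing is read from its call or from the members' share. The corresponding shares of all tested genes were 2.96% called higher and 5.78% called lower. The study itself had picked these 3 genes from the same libraries, so their count is not independent evidence of the direction. *Mcam* and *Cdh2*, the most abundant members, had adjusted p-values under the threshold with folds below it. An adjusted p no higher than 0.05 was reached by 5 of the 7 (71.4%), beside 57.8% of all tested genes. The groups did not overlap for 5 of the 7, beside 64.0%. Shares so near the background are no result about these genes. The median log2 fold change of the 7 tested members was 0.48, the value of *Mcam*, and that of all tested genes was -0.15. The limits on the count hold for this median too, so nothing is read from it.

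**Figure D1:**
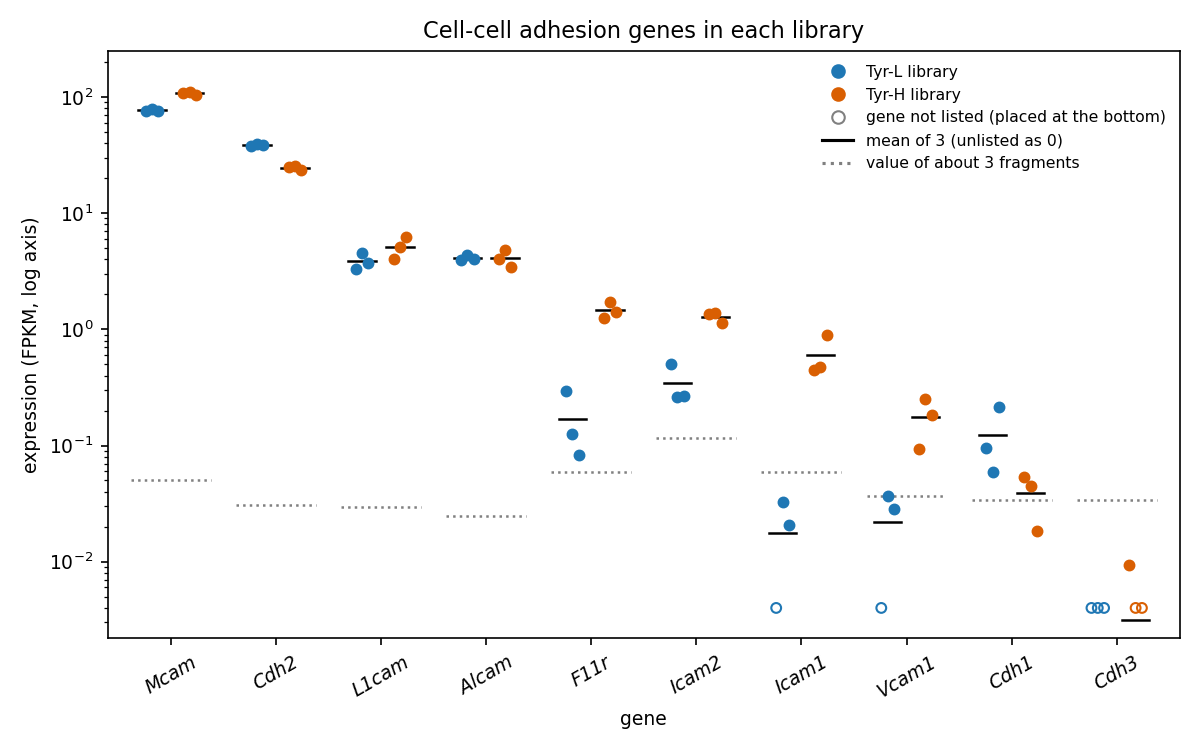
FPKM of each of the 10 genes in each library on a log axis, with Tyr-L in blue and Tyr-H in orange, the mean of 3 libraries as a black line and the value of about 3 fragments as a dotted line. *Mcam* and *Cdh2* lie far above the other 8 genes in all 6 libraries, while *Icam1* and *Vcam1* lie under the dotted line or at it in Tyr-L libraries and above it in Tyr-H libraries.

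The promoters of *Icam1* and *F11r*, the called genes for which RefSeq (GRCm38.p6) has a window here, are shown as the 250 bases before the RefSeq start. They were read on the + strand, from chr9:21015690-21015939 and chr1:171437311-171437560. Capitals mark matches, on either strand, to GGNNNTTCC (a short core of the kind bound by NF-kappaB proteins), to CACCTG (an E-box of the Snail, Slug and ZEB repressors), and to CACGTG and CATGTG (E-boxes of MITF).
Icam1: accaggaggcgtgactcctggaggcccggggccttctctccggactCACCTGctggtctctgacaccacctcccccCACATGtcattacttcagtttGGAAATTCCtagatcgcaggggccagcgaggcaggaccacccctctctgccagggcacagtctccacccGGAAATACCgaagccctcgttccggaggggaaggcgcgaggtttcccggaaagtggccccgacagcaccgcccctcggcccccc
F11r: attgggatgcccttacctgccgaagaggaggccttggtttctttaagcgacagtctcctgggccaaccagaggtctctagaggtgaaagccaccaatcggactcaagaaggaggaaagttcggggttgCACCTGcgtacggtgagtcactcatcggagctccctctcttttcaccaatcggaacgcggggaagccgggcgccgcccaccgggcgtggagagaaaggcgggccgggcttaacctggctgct
The *Icam1* stretch held GGAAATTCC, which matches the first motif on both strands, from position -153, and GGAAATACC, a match on the reverse strand, from position -84, where -1 is the last base before the start. It also held CACCTG from position -204 and CACATG, the reverse complement of CATGTG, from position -174. The *F11r* stretch held CACCTG from position -122, and its window held a GGNNNTTCC match after the start, outside the stretch shown. None of the matches overlapped a match to another motif. Windows were found for 5 of the 9 genes looked up (*F11r*, *Icam1*, *Mcam*, *Alcam* and *L1cam*). Of these 5, 2 held GGNNNTTCC and 4 held CACCTG, beside 18.5% and 20.2% of the 32851 windows in the table. CACGTG was in none of the 5 and in 7.15% of all windows, and CATGTG in 1 of 5 and 14.2% of all. A match describes the letters only, and binding was not measured.

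*F11r* encodes JAM-A, a tight junction protein that binds JAM-A on the next cell and the leukocyte integrin LFA-1 (ENSMUSG00000038235, chr1:171437535-171464603, + strand). Its level was 0.297, 0.126 and 0.0823 in the Tyr-L libraries and 1.24, 1.72 and 1.42 FPKM in the Tyr-H libraries. Every Tyr-H library was above every Tyr-L library, and the Tyr-L values themselves spread widely. The means were 0.168 ± 0.114 and 1.46 ± 0.245 FPKM (SD, n = 3), a ratio of 8.69 with a counting interval of 5.76 to 13.8. Without the first Tyr-L library the ratio was 14.1. The log2 fold change was 2.61 ± 0.298 (SE, adjusted p = 6.8e-05 in limma). It ranked 33 from the top among the 14336 tested genes.

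*Icam1* encodes a ligand of the integrins LFA-1 and Mac-1 (ENSMUSG00000037405, chr9:21015985-21028817, + strand). It was not listed in the first Tyr-L library and was at 0.0325 and 0.0208 FPKM in the other two, against 0.449, 0.472 and 0.889 FPKM in the Tyr-H libraries. The Tyr-L values were all below the 0.0545 to 0.0633 FPKM that 3 fragments would give, and the groups did not overlap. The third Tyr-H library was the highest by a wide margin. With about 3 fragments over the Tyr-L group and about 92 over the Tyr-H group, the ratio of the means was 33.9, with a counting interval of 9.82 to 146. Without the first Tyr-L library it was 22.6, and without the second it was 58.0. The log2 fold change was 2.53 ± 0.324 (SE, adjusted p = 0.000139 in limma), and *Icam1* passed the filter on low values only through its Tyr-H libraries. The antisense gene *Gm47079* overlaps it, and the deposited locus also holds *Icam4*, *Icam5* and a pair of other genes, so its value is uncertain to that extent. *Icam4*, the blood group adhesion molecule next to it, was at 0.373 ± 0.0627 and 0.534 ± 0.0227 FPKM (log2 fold change 0.43, adjusted p = 0.103 in limma), and *Icam5* was at 0.0312 and 0.0308 FPKM.

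*Icam2* encodes another LFA-1 ligand, best known from endothelium, platelets and leukocytes (ENSMUSG00000001029, chr11:106377656-106388075, - strand). It was at 0.507, 0.262 and 0.265 in Tyr-L libraries against 1.35, 1.38 and 1.12 FPKM in Tyr-H libraries. The groups were well separated, with the first Tyr-L library the highest of its group. The means were 0.344 ± 0.141 and 1.28 ± 0.139 FPKM (SD, n = 3), a ratio of 3.72 with a counting interval of 2.42 to 6.02. The log2 fold change was 1.68 ± 0.239 (SE, adjusted p = 0.000268 in limma).

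*Vcam1* encodes the ligand of integrin alpha4 beta1 (ENSMUSG00000027962, chr3:116109949-116129688, - strand, overlapped by the antisense gene *Gm43109*). It was not listed in the first Tyr-L library and was at 0.0371 and 0.0282 FPKM in the others, against 0.0942, 0.249 and 0.182 FPKM in Tyr-H. The groups did not overlap, but the Tyr-L values were at or under the 0.0338 to 0.0392 FPKM of 3 fragments. The ratio of the means was 8.06, with a counting interval of 3.38 to 27.5 from about 5 and 44 fragments, and without the second Tyr-L library it was 12.4. Its mean over the 6 libraries, 0.0986 FPKM, was just under the filter, so it was not tested, while *Icam1* was at 0.311 FPKM. With no filter it was called, with a log2 fold change of 1.15 (adjusted p = 0.0109 in limma). Leaving out 1 Tyr-L library lifted the mean over the filter, and *Vcam1* was then called without the second or the third but not without the first (adjusted p = 0.0635 in limma). In these settings it passed the filter only through its Tyr-H libraries, so nothing is read from those calls.

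RNA of other cell types bears on *F11r*, *Icam1*, *Icam2* and *Vcam1*, since endothelium and leukocytes also use them. Of 8 endothelial markers 3 were listed, with a summed level of 0.179 to 0.505 FPKM in Tyr-L and 0.0560 to 0.152 FPKM in Tyr-H libraries, and *Cdh5*, *Kdr*, *Tek*, *Emcn* and *Tie1* were listed in none. Of 8 leukocyte markers 4 were listed, with a sum of 3.60 to 4.51 FPKM in Tyr-L and 4.80 to 5.01 FPKM in Tyr-H, most of it *Cd68*. *Ptprc*, *Cd3e*, *Itgam* and *Csf1r* were listed in no library. The summed fibroblast markers, all 6 listed, were at 1.82 to 2.08 and 1.84 to 2.21 FPKM. Of the 3 tested, *Col1a1* was higher in Tyr-H cells, at 0.33 and 0.60 FPKM (log2 fold change 0.71, adjusted p = 0.0173 in limma). The other 2 had an adjusted p over 0.05, with *Pdgfrb* at 1.39 and 1.13 FPKM (-0.27, adjusted p = 0.137). In these bulk samples a larger share of cells with a transcript and more of it per cell cannot be told apart.

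*Mcam* and *Cdh2* had opposite differences. *Mcam* encodes MCAM (CD146), named for melanoma cells, where it was first described (ENSMUSG00000032135, chr9:44134469-44142727, + strand, overlapped by the antisense gene *Gm10687*, which was at 0.210 and 0.287 FPKM). It was at 76.5, 79.6 and 75.3 in Tyr-L against 108, 109 and 105 FPKM in Tyr-H libraries. All Tyr-H libraries were above all Tyr-L libraries, with little spread inside either group. The means were 77.1 ± 2.18 and 107 ± 2.32 FPKM (SD, n = 3), and the log2 fold change was 0.48 ± 0.0345 (SE, adjusted p = 4.67e-06 in limma), below the fold threshold. *Mcam* ranked 934 by level in Tyr-L and 602 in Tyr-H among the tested genes.

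*Cdh2* encodes N-cadherin (ENSMUSG00000024304, chr18:16588877-16809246, - strand, overlapped by the antisense gene *Gm15485*). It was at 37.5, 39.8 and 38.6 in Tyr-L against 25.1, 25.4 and 23.7 FPKM in Tyr-H libraries. Here the Tyr-H libraries were all lower, again with little spread. The means were 38.6 ± 1.12 and 24.7 ± 0.915 FPKM (SD, n = 3), and the log2 fold change was -0.64 ± 0.0427 (SE, adjusted p = 3.02e-06 in limma), also below the fold threshold. The ratio of *Mcam* to *Cdh2*, a measure chosen after their values were seen and unaffected by a common factor for a library, was 2.00 ± 0.0439 in Tyr-L and 4.35 ± 0.0712 in Tyr-H cells (SD, n = 3, exact two-sided permutation test, p = 0.1). That is the smallest p that 3 against 3 can give.

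The other cadherins of the 10 were near the limit of detection. *Cdh1*, which encodes E-cadherin (ENSMUSG00000000303, chr8:106603351-106670246, + strand), was at 0.0954, 0.0597 and 0.214 in Tyr-L against 0.0536, 0.0445 and 0.0182 FPKM in Tyr-H libraries. The groups did not overlap, with about 31 fragments in all against 11. The ratio of the means was 0.315, with a counting interval of 0.155 to 0.700, and the gene was under the filter and not tested. Without the third Tyr-L library the ratio was 0.500. Of 7 epithelial and keratinocyte markers 4 were listed, with a sum of 0.0925 to 0.161 FPKM in Tyr-L and 0.0296 to 0.0760 in Tyr-H libraries, *Krt8*, *Krt18* and *Esrp1* were listed in none, and the part of such cells in the *Cdh1* values was not tested. *Cdh3*, which encodes P-cadherin (ENSMUSG00000061048, chr8:106510891-106557297, + strand), was listed only in the first Tyr-H library, at 0.00938 FPKM, below the 0.0315 to 0.0366 FPKM of 3 fragments. It was not detectable at this depth. N-cadherin was 99.7% ± 0.209 of the summed FPKM of the 3 cadherins in Tyr-L and 99.8% ± 0.0870 in Tyr-H cells (SD, n = 3, exact two-sided permutation test, p = 0.4). The groups overlapped in this share. With the 10 other cadherins of the related list added to the sum, its share was 63.5% ± 3.82 and 57.5% ± 0.632, and the groups did not overlap (p = 0.1, exact permutation test).

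*L1cam* and *Alcam* were not called. *L1cam* encodes an adhesion molecule of neurons that is also made by melanomas (ENSMUSG00000031391, chrX:73853778-73896105, - strand). It was at 3.34, 4.57 and 3.76 in Tyr-L against 4.06, 5.10 and 6.18 FPKM in Tyr-H libraries. The groups overlapped. The log2 fold change was 0.38 with a 95% interval of 0.02 to 0.74 (adjusted p = 0.0683 in limma). It stayed under the fold threshold in every alternative, but its adjusted p in limma was 0.0179 with median ratio scaling, 0.0159 with quantile normalization, 0.034 without the second Tyr-L library and 0.0139 without the first Tyr-H library. Without the third Tyr-H library the log2 fold change was 0.23 (adjusted p = 0.226). It overlaps *Arhgap4* and *Avpr2*, and its deposited locus was shared with *Naa10*, at 32.2 and 27.1 FPKM, so its value is uncertain.

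*Alcam* encodes ALCAM (CD166), which binds itself and the lymphocyte receptor CD6 (ENSMUSG00000022636, chr16:52248996-52454074, - strand). It was at 3.97, 4.37 and 4.04 in Tyr-L against 4.02, 4.80 and 3.44 FPKM in Tyr-H libraries. The lowest and the highest values were both from Tyr-H libraries. The log2 fold change was -0.03 with a 95% interval of -0.30 to 0.24 (adjusted p = 0.865 in limma), and its sign turned with the scaling (0.12 with median ratio scaling, 0.15 with quantile normalization).

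Over all tested genes the median difference on the log2 scale moved with the scaling of the libraries. It was -0.15 as deposited, -0.25 with each library rescaled to the same total, and -0.01 with either median ratio scaling or quantile normalization. Relative to the deposited median, the log2 fold change of *Mcam* was 0.63 and that of *Cdh2* was -0.49. Of the 7 tested genes 6 had the same sign under all 4 scalings, the exception being *Alcam*. Among all tested genes, 425 were called higher and 829 lower as deposited, 403 and 1175 with the same total, 538 and 588 with median ratio scaling, and 611 and 494 with quantile normalization.

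**Figure D2:**
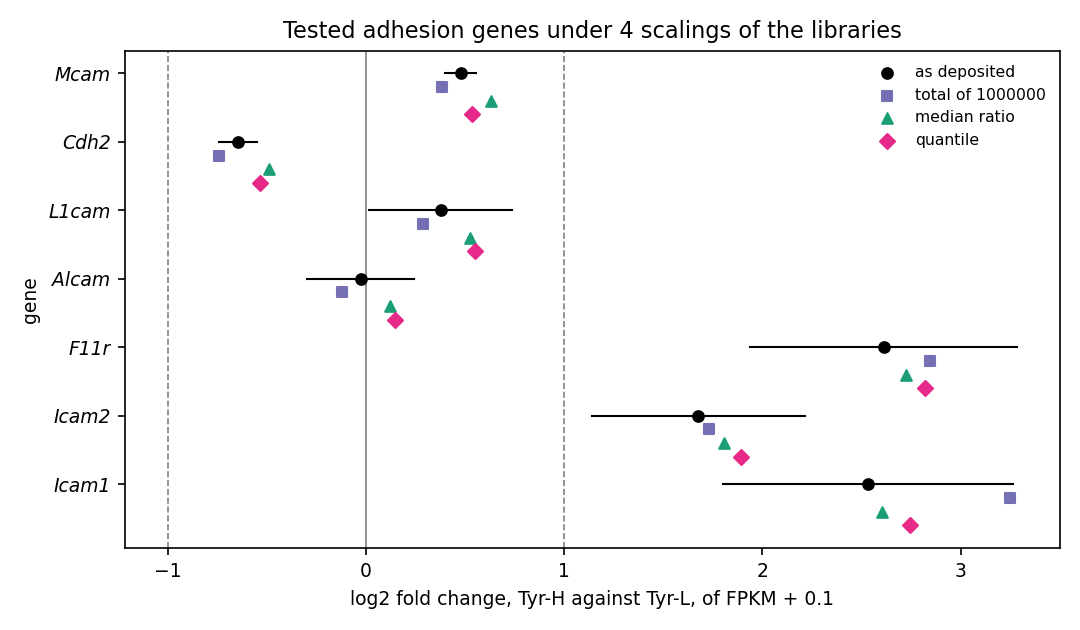
Log2 fold change, Tyr-H against Tyr-L, of the 7 tested genes on log2(FPKM + 0.1), as deposited (black, with its 95% interval) and under 3 other scalings; dashed lines mark the fold threshold. *F11r*, *Icam1* and *Icam2* lie beyond the threshold under all 4, *Mcam* and *Cdh2* stay inside it on opposite sides of 0, and *Alcam* crosses 0.

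The order of the 10 levels was led by the same genes in both groups. In Tyr-L cells *Mcam* was the highest, followed by *Cdh2*, then *Alcam* and *L1cam*, which overlapped. *Icam2*, *F11r* and *Cdh1* came next, with *F11r* overlapping both its neighbours and *Icam2* above *Cdh1* in every library. *Vcam1*, *Icam1* and *Cdh3* were at the bottom and overlapped. In Tyr-H cells *L1cam* and *Alcam* overlapped behind *Mcam* and *Cdh2*, *F11r* and *Icam2* overlapped behind them, and *Icam1*, *Vcam1*, *Cdh1* and *Cdh3* followed without overlap. All *Cdh3* values and the *Cdh1* value of the third Tyr-H library were under 3 fragments, so the order of *Cdh1* and *Cdh3* is uncertain. *Mcam* made up 61.6% to 62.6% of the summed FPKM of the 10 genes in Tyr-L libraries and 73.6% to 74.8% in Tyr-H libraries. *Cdh2* made up 30.7% to 31.6% and 16.7% to 17.4%. At 1 FPKM or more there were 4 of the 10 genes in each Tyr-L library and 6 in each Tyr-H library. Those added in Tyr-H libraries were *F11r* and *Icam2*, which the study had picked from the same libraries. The share of all genes at that level was not counted, so nothing is read from these numbers.

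**Figure D3:**
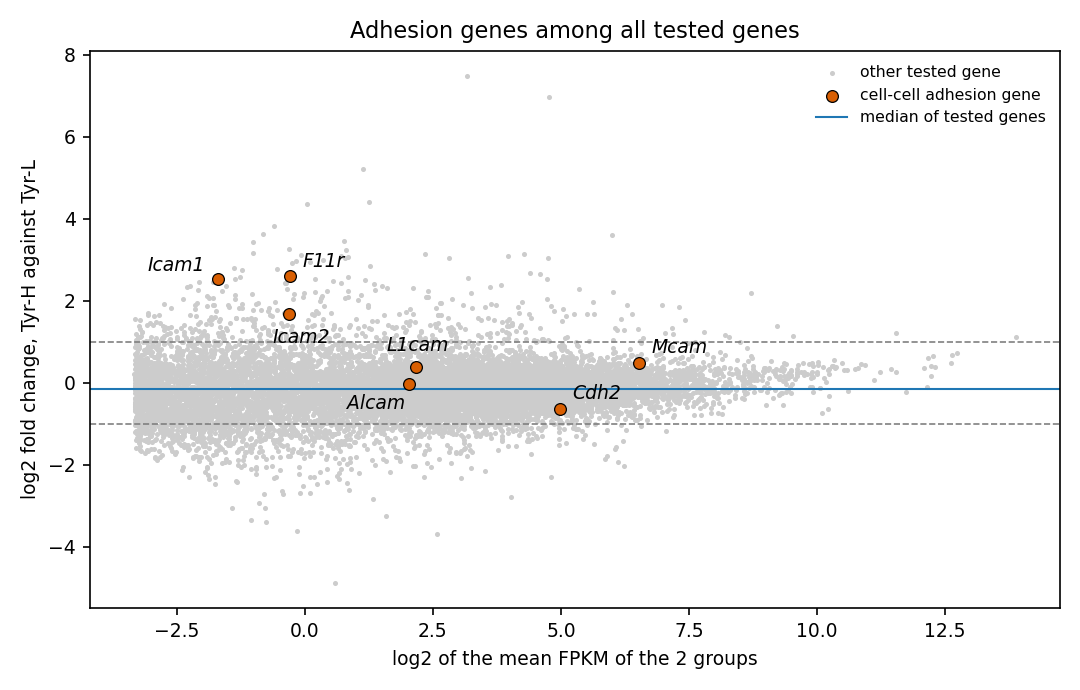
Log2 fold change of each tested gene (grey) against the log2 of its mean FPKM, with the 7 tested adhesion genes in orange, the median of all tested genes as a blue line and the fold threshold as dashed lines. *F11r*, *Icam1* and *Icam2* are at low levels near the upper edge of the cloud, and *Mcam* and *Cdh2* are at high levels on either side of the median.

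Genes that work with the 10 were described from 9 lists of 83 genes. Of these, 66 were listed and 52 tested, and 3 were called (5.77% of the tested), 2 higher and 1 lower. An adjusted p no higher than 0.05 was reached by 33 of the 52 (63.5%), 15 higher and 18 lower in Tyr-H cells, and the median log2 fold change was -0.04. These shares stand beside the 8.75% and 57.8% of all tested genes given above.

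Other cadherins supplied 2 of the 3 calls. *Cdh6*, which encodes K-cadherin, rose by 1.73 on the log2 scale, from 0.312 ± 0.0712 to 1.26 ± 0.162 FPKM (SD, n = 3, adjusted p = 7.58e-05 in limma). *Cdh24* fell by 1.50, from 0.492 ± 0.0762 to 0.109 ± 0.0136 FPKM (adjusted p = 0.000661 in limma). With a pseudocount of 1 FPKM both lost their calls, at 0.79 for *Cdh6* and -0.43 for *Cdh24*. Of the 10 other cadherins 6 were listed and 5 tested, and the most abundant, *Cdh19*, was at 19.7 and 15.2 FPKM (log2 fold change -0.36, adjusted p = 0.0101).

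The catenins link cadherins to actin. Of 6 genes of the catenin and linker list, 4 were lower (*Ctnnb1*, *Ctnna1*, *Ctnnd1* and *Afdn*) and 1 higher (*Vcl*) at an adjusted p no higher than 0.05, none past the fold threshold. The size of these differences moved with the scaling, as did the median of all genes. Over the 4 scalings *Ctnnb1* ran from -0.40 to -0.12, *Ctnna1* from -0.425 to -0.18, *Ctnnd1* from -0.71 to -0.46, *Afdn* from -0.38 to -0.13 and *Vcl* from 0.20 to 0.44. *Jup*, the gene for plakoglobin, was at 0.773 ± 0.125 and 0.969 ± 0.0684 FPKM (log2 fold change 0.30, adjusted p = 0.161 in limma). *Ctnnb1*, the gene for beta-catenin and the most abundant of the list, was at 678 ± 8.15 and 560 ± 15.3 FPKM (log2 fold change -0.28, adjusted p = 0.000103 in limma). *Ctnnd1*, the gene for p120-catenin, which holds cadherins at the membrane, was at 49.8 ± 0.748 and 32.6 ± 0.723 FPKM (-0.61, adjusted p = 1.43e-06). Within each library the ratio of *Cdh2* to *Ctnnd1* was 0.776 ± 0.0121 in Tyr-L and 0.759 ± 0.0147 in Tyr-H cells (SD, n = 3, exact two-sided permutation test, p = 0.3), and the groups overlapped. *Ctnnd1* was picked after its values were seen, and its log2 fold change is close to that of *Cdh2* (-0.64). Nothing is read from this overlap.

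Known repressors of *Cdh1* were measured as well. *Zeb2*, the most abundant of them, was at 32.8 ± 3.31 and 17.1 ± 1.50 FPKM (log2 fold change -0.94, adjusted p = 1.36e-05 in limma), inside the fold threshold. Over the 4 scalings it ran from -1.03, with each library rescaled to the same total, to -0.78. *Snai2*, the gene for Slug, differed the other way, at 2.42 ± 0.242 and 4.18 ± 0.538 FPKM (0.76, adjusted p = 0.000537 in limma). *Zeb1* was at 0.166 and 0.229 FPKM (0.31, adjusted p = 0.329 in limma). *Snai1* was under the filter and not tested, and *Twist1* and *Twist2* were not listed.

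Among tight junction and JAM genes, beside *F11r*, 2 were higher and 2 lower at an adjusted p no higher than 0.05 of 10 tested, and none was called. *Cldn12* was the most abundant in Tyr-H cells, at 36.1 ± 0.550 and 58.0 ± 1.55 FPKM (log2 fold change 0.68, adjusted p = 8.46e-07 in limma). The paralog *Jam3* was at 14.6 and 9.97 FPKM (-0.55, adjusted p = 2.93e-05), and *Jam2* at 1.59 and 1.30 FPKM (-0.27, adjusted p = 0.177). In the desmosome list 3 of 8 genes were tested, 2 of them higher and 1 lower at an adjusted p no higher than 0.05. *Pkp3*, a plakophilin, was called higher, with a log2 fold change of 1.11 and means of 0.0732 and 0.284 FPKM (adjusted p = 0.0261 in limma). It passed the filter on low values only through its Tyr-H libraries, so nothing is read from its call. Its call was lost with a pseudocount of 1 FPKM (0.25, adjusted p = 0.0357), and without the first Tyr-L library (0.92, adjusted p = 0.0775), the first Tyr-H library (0.85, adjusted p = 0.107) or the second (1.07, adjusted p = 0.0737).

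Other immunoglobulin-type adhesion genes, 10 of 17 tested, had 3 higher and 2 lower at an adjusted p no higher than 0.05, none of them called. *Nrcam*, which encodes an L1 family molecule, was at 35.0 ± 1.37 and 27.7 ± 1.43 FPKM (log2 fold change -0.33, adjusted p = 0.000321 in limma). *Pvr*, a nectin-like poliovirus receptor, was at 19.3 and 29.5 FPKM (0.61), and *Cadm1* at 34.8 and 20.7 FPKM (-0.74).

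Of the integrin and CD6 receptor genes, 7 of 11 were tested, with 2 higher and 2 lower at an adjusted p no higher than 0.05. *Itgb1*, the most abundant, was at 140 ± 1.68 and 165 ± 1.99 FPKM (log2 fold change 0.23, adjusted p = 0.000118 in limma). *Itga4*, the VCAM-1 binding subunit, was at 25.3 ± 0.432 and 19.6 ± 1.63 FPKM (-0.36, adjusted p = 0.000672). The LFA-1 subunit genes *Itgal* and *Itgb2* were at or below 0.261 FPKM on average in both groups, and *Cd6* was not listed.

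ERM proteins tie ICAM tails to actin, and 2 of their 3 genes were higher at an adjusted p no higher than 0.05. *Msn*, the gene for moesin, was at 148 ± 2.31 and 185 ± 2.80 FPKM (log2 fold change 0.32, adjusted p = 2.06e-05 in limma). Of the 5 sheddases, which cut adhesion molecules from the surface, 4 were lower at an adjusted p no higher than 0.05 and none was called. *Adam8*, the other one, was at 0.425 ± 0.257 and 0.189 ± 0.134 FPKM (log2 fold change -0.81, adjusted p = 0.173 in limma). *Adam9* was at 62.5 ± 0.593 and 53.9 ± 3.49 FPKM (-0.22, adjusted p = 0.00354), and *Adam10*, which cuts N-cadherin, at 45.9 ± 2.16 and 32.3 ± 1.38 FPKM (-0.50, adjusted p = 2.15e-05). Over the 4 scalings *Adam9* ran from -0.31 to -0.06, *Adam15* from -0.38 to -0.13, *Adam17* from -0.50 to -0.25 and *Adam10* from -0.60 to -0.35.

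**Figure D4:**
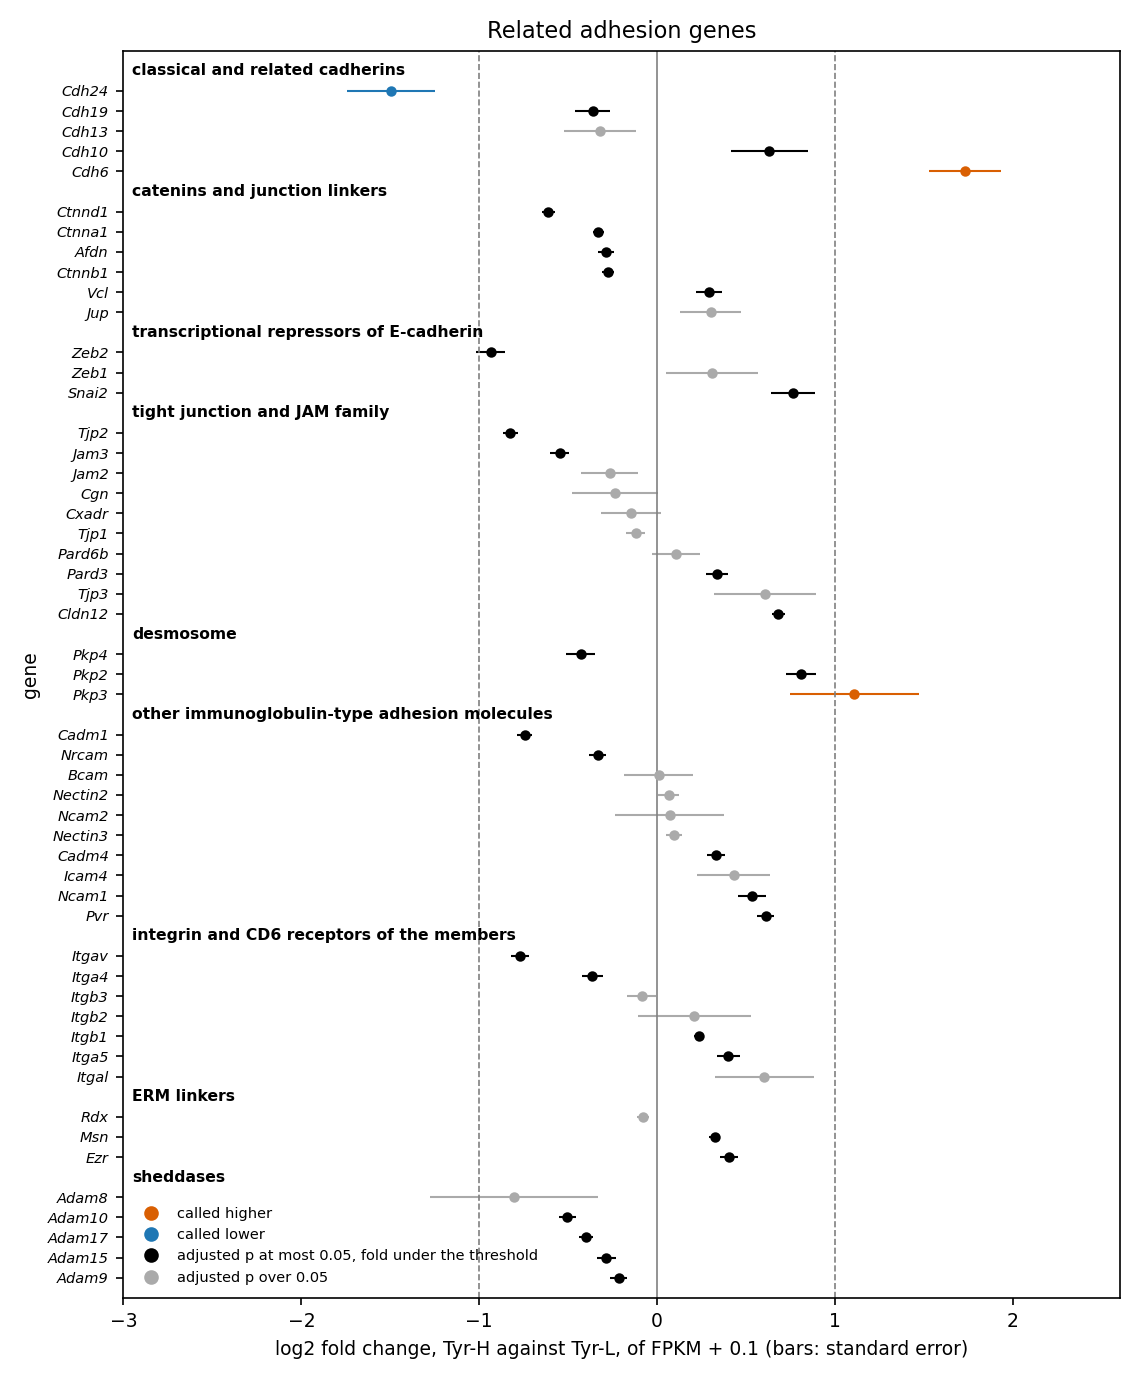
Log2 fold change with its standard error of the 52 tested genes of the 9 related lists. *Cdh6* and *Pkp3* (orange) lie above the fold threshold and *Cdh24* (blue) below it, and most black points, with an adjusted p no higher than 0.05, lie between the thresholds on both sides of 0.

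Genes with the pattern most like that of each called member were sought among 11022 tested genes that averaged 1 FPKM or more, by the distance between log2 profiles over the 6 libraries. For *F11r* they were *Trim47*, at a distance of 0.668, and *Tnfrsf9*, at 0.674. For *Icam1* they were *Ifi44*, at 0.299, and *Lsp1*, at 0.387. With 0.1 FPKM added, their log2 fold changes were 2.47 and 2.59, beside 2.53 for *Icam1*. Mean levels (Tyr-L, then Tyr-H) were 0.374 and 2.57 FPKM for *Ifi44*, 0.440 and 3.18 for *Lsp1*, but 0.0178 and 0.60 for *Icam1*. The added 0.1 FPKM is above the Tyr-L mean of *Icam1* and lowers its fold, so the likeness does not extend to its ratio of means, 33.9. For *Icam2* they were *Ccl5*, at 0.479, and *Stc1*, at 0.523. The libraries share their groups, so genes with a difference of like size between the groups come out close by this measure. The called members themselves averaged under the 1 FPKM asked of the candidates, at 0.816 for *F11r*, 0.311 for *Icam1* and 0.814 FPKM for *Icam2*.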

How the data were processed

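RNA from 3 Tyr-L and 3 Tyr-H libraries was analysed, grouped by the titles. The authors deposited 1 table of FPKM values per library, in which fragments are already divided by transcript length and by the mapped total. Their processing notes name Trimmomatic, HISAT2 and GRCm38.p6. The quantifier and its annotation are not given in the sources used here. No deposited value was 0, and genes not listed in a library were taken as 0. Coordinates came from GENCODE M21 (GRCm38), which held 20709 of the identifiers.

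Values were compared as log2(FPKM + 0.1) for genes averaging 0.1 FPKM or more, with limma 3.58.1 in R 4.3.3 (eBayes with a variance trend, two-sided, Benjamini-Hochberg adjustment over all tested genes). The thresholds were those the methods give for the sequencing, where no test is named. A fold on this scale understates the change of low genes. Single values had an exact two-sided permutation test of 3 against 3, which cannot go below 0.1. The procedure was tested on simulated data. Depth was estimated from the steps of the lowest values. The floor of 3 fragments and the counting intervals (95%, from estimated fragments) are approximate and cover counting error only. The rest was done with scipy 1.17.1, pandas 2.3.3, numpy 2.4.6 and, for plots, matplotlib 3.10.9 (Python 3.11.15).

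The genes and lists were chosen with earlier results of these data known. The rule named the 10 genes, the called genes of each list or else its most abundant gene, the markers, *Tyr*, overlapping genes, and the 2 genes most like each called member. *Cdh19*, *Ctnna1*, *Ctnnd1*, *Afdn*, *Vcl*, *Jup*, *Snai1*, *Snai2*, *Zeb1*, *Jam2*, *Jam3*, *Pvr*, *Cadm1*, *Itga4*, *Itgal*, *Itgb2*, *Adam8*, *Adam10*, *Adam15* and *Adam17* were named after their values were seen. No replicate number pairs the libraries by the labels. Libraries of 1 group differed by a median of 0.0953 to 0.114 on the log2 scale and libraries of different groups by 0.315 to 0.371. Alternatives were other pseudocounts, filters, scalings and variance estimates, a replicate block, no fold threshold, and each library left out in turn.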

Additional observations from a re-analysis of the deposited data

How the results depend on the processing

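The number of adhesion genes called, 3 of 7 tested, was 1 with a pseudocount of 1 FPKM, 0 with a mean of at least 1 FPKM (where 4 of the genes were tested and limma gave *Mcam* and *Cdh2* an adjusted p under the threshold and 3 of the 4 an unadjusted p under 0.05), 5 with no fold threshold, and 3 to 4 with each library left out, the fourth being *Vcam1*, which then passed the filter only through its Tyr-H libraries. The same settings moved the 1254 calls among all genes to 388, 640 and 8292, and to between 1149 and 1279. With a pseudocount of 1 FPKM *Icam1* and *Icam2* lost their calls (log2 fold changes of 0.65 and 0.77), by the construction of that scale, and *F11r* was at 1.08. With a pseudocount of 0.01 FPKM *Icam1* was at 4.63 and *F11r* at 3.22, both called. With each library left out, limma called all 3, at 2.37 to 2.93 for *F11r*, 2.26 to 2.69 for *Icam1* and 1.55 to 1.92 for *Icam2*, while *Mcam* and *Cdh2* were called only with no fold threshold. In each of these fits *Icam1* passed the filter only through its Tyr-H libraries, so nothing is read from its repeated call. The sign for *Alcam* turned with median ratio scaling (0.12), with quantile normalization (0.15), without the second Tyr-L library (0.02) and without the third Tyr-H library (0.0894), and ran from -0.15 to 0.0894 over the libraries left out. The N-cadherin share was 0.151 percentage points higher in Tyr-H cells, 0.0343 to 0.235 points with each library left out, and differed by -6.01 points with all cadherins in the sum. The replicate numbers did not pair the libraries (correlations of 0.0223, 0.0132 and -0.0834), and with the replicate block 1258 genes and 3 members were called and the adjusted p of *L1cam* was 0.0323. The depth limits *Cdh1*, *Cdh3*, *Vcam1* and, in Tyr-L cells, *Icam1*.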
